A study of Mus musculus with 6 samples.

Results

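The nuclear genes of oxidative phosphorylation were examined in sorted cells of the mouse calvarial suture, the fibrous seam between the bones of the skull roof. Members were taken by gene symbol from the array features that carry 1 symbol, with Ndufa, Ndufb, Ndufc, Ndufs and Ndufv genes read as complex I, Sdha to Sdhd as complex II, Uqcr genes as complex III, Cox4 to Cox8 genes as complex IV and Atp5 genes as complex V. This gave 81 of the 19938 genes tested, with 35 in complex I, 4 in complex II, 8 in complex III, 17 in complex IV and 17 in complex V. Where a gene had several features, the one with the highest mean over the 6 samples was used. The patterns also take in 2 genes that are close relatives of subunits and not core subunits themselves, Ndufa4l2 and Cox7a2l, and they place Ndufa4 in complex I, although its protein is now counted with complex IV.

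The study compared 3 samples of Axin2+/GFP+ cells with 3 samples of Axin2-/GFP- cells, with cells of 6 to 8 mice, aged 28 postnatal days, pooled for every sample. Mice of both groups had a mixed background of C57BL/6J, CD-1 and B6CBAF2 and carried the same pair of transgenes, Axin2rtTA, in which Axin2 drives the doxycycline-dependent activator rtTA, and TRE-H2BGFP, in which that activator turns on a histone fused to GFP. All mice received doxycycline between postnatal days 25 and 28, so the GFP+ fraction holds cells in which the Axin2 transgene had been active in that time, and the GFP- fraction holds cells without GFP. Cells were freed by 0.2% collagenase. The study describes the positive gate as one for strong GFP, so cells of intermediate GFP may lie in neither fraction. The labels give GFP as the gate, and the methods mention no antibody that would have removed blood cells. The comparison asks how cells that express Axin2, which the study follows as suture stem cells, differ from GFP-negative cells of the same tissue, and every log2 change below is Axin2+/GFP+ minus Axin2-/GFP-.

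Oxidative phosphorylation takes place in the inner mitochondrial membrane. Complexes I and II pass electrons from NADH and succinate to ubiquinone, complex III hands them on to cytochrome c, complex IV reduces oxygen, and complex V uses the proton gradient built by complexes I, III and IV to make ATP. Complexes I, III, IV and V hold subunits encoded in the nucleus and in mitochondrial DNA, whereas complex II is wholly nuclear. Stem cells of several tissues are known to rely more on glycolysis than their progeny do, and mature neutrophils are also known for a largely glycolytic metabolism.

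Values are log2 intensities. SE stands for the standard error of a difference, and a gene was called when limma gave a Benjamini-Hochberg adjusted p under 0.05 over all genes tested. The arrays did not share a distribution. Their upper quartiles were 3.72, 3.75 and 3.76 in Axin2+/GFP+ and 3.99, 3.97 and 4.0 in Axin2-/GFP-, and the pairwise correlation of arrays across genes was 0.910 to 0.920 within Axin2+/GFP+, 0.967 to 0.971 within Axin2-/GFP- and 0.855 to 0.878 between them. The median log2 change over all genes was 0.14, and 4 other scalings moved it, to 0.02 with the arrays centred on their medians, 0.06 with quantile normalization, 0.011 with cyclic loess and -0.18 with the arrays centred on olfactory and vomeronasal receptor genes. Axin2 itself measured 2.83 ± 0.27 in Axin2+/GFP+ and 2.28 ± 0.10 in Axin2-/GFP- (SD, n = 3 each), without overlap, but its log2 change of 0.55 (SE 0.19) did not pass (adjusted p = 0.0802 in limma).

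The sorts also differed in markers of blood cells, and the part of these cells in the results below was not tested. For the counts that follow, 11.4% of all genes were called lower and 4.64% higher. Of 12 B lineage markers measured, 12 were lower in Axin2+/GFP+ and 0 higher, with Cd79b and Ebf1 changing by -5.28 and -5.72 on the log2 scale, and the mean level of the list was 2.83 to 2.99 in Axin2+/GFP+ and 6.73 to 7.21 in Axin2-/GFP-. Of 15 neutrophil markers, 13 were higher and 0 lower, with a median log2 change of 2.08 and a mean level of 8.11 to 8.47 against 5.25 to 6.69. The markers with the smallest p, Ltf and Mpo, had log2 changes of 4.30 and 1.97. Suture mesenchyme and osteoblast markers had 4 of 13 higher and 0 lower, and 9 did not pass. The called genes were Col1a2 and Col3a1, with log2 changes of 1.72 and 1.95, Col1a1 and Ibsp. At an unadjusted limma p under 0.05, 6 markers of the list were higher and 1 lower, and 1 was called lower with median or receptor centring. The mean level of the list was 5.34 to 5.62 against 4.55 to 4.85. Markers of suture cells and of blood cells were thus measured in both fractions, and in such bulk samples fewer cells of a type and less RNA per cell cannot be told apart.

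Of the 81 oxidative phosphorylation genes, 21 were lower in Axin2+/GFP+ cells, 0 were higher and 60 did not pass. Lower genes made up 25.9% of the members, against 11.4% of all genes tested, and higher genes 0 of 81 against 4.64%. At an unadjusted limma p under 0.05, 41 members were lower and 3 higher (Atp5h, Cox7a1 and Ndufa8), with 17.6% and 16.3% of all genes past that threshold in the same directions. The methods' t-test called 2 members lower after Benjamini-Hochberg adjustment, Uqcrc2 and Atp5g3, where 2.6% of all genes passed it as lower. In 39 members all 3 Axin2+/GFP+ values lay below all 3 Axin2-/GFP- values and in 4 they lay above, where all genes did so in 17.8% and 23.1%. The median member had a log2 change of -0.66, with quartiles of -1.04 and -0.16, and the changes ran from -2.13 in Ndufb5 to 0.59 in Cox7a1. The sign was negative in 64 members, whereas 38.3% of all genes had a negative change. The median level of the members was 5.26, 4.92 and 5.16 across the Axin2+/GFP+ samples, below the 5.70, 5.43 and 5.61 found for Axin2-/GFP-.

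These shares have to be read beside the brightness of the members, because the change between the sorts varied with signal. The mean log2 values of the members had quartiles of 4.46 and 6.31, a range that holds 2404 genes of all kinds. In that range 35.5% of genes were lower, 4.03% were higher, 76% had a negative change, and the median log2 change was -0.57. The members were thus called lower more often than genes in general, but not more often than genes of like signal, and their median of -0.66 lay close to the -0.57 of those genes. Of genes of like signal 48.4% lay wholly lower and 8.61% wholly higher in Axin2+/GFP+, and at an unadjusted limma p under 0.05 the shares were 50.2% and 8.36%. The methods' t-test with adjustment called 9.44% of them lower. The number of called members also rested on single samples: it was 10 without Axin2-/GFP- replicate 1, 13 without Axin2-/GFP- replicate 3 and 15 without Axin2-/GFP- replicate 2, where 6.9%, 7.04% and 7.3% of all genes and 22%, 23.2% and 23% of genes of like signal were called lower.

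**Figure D1:**
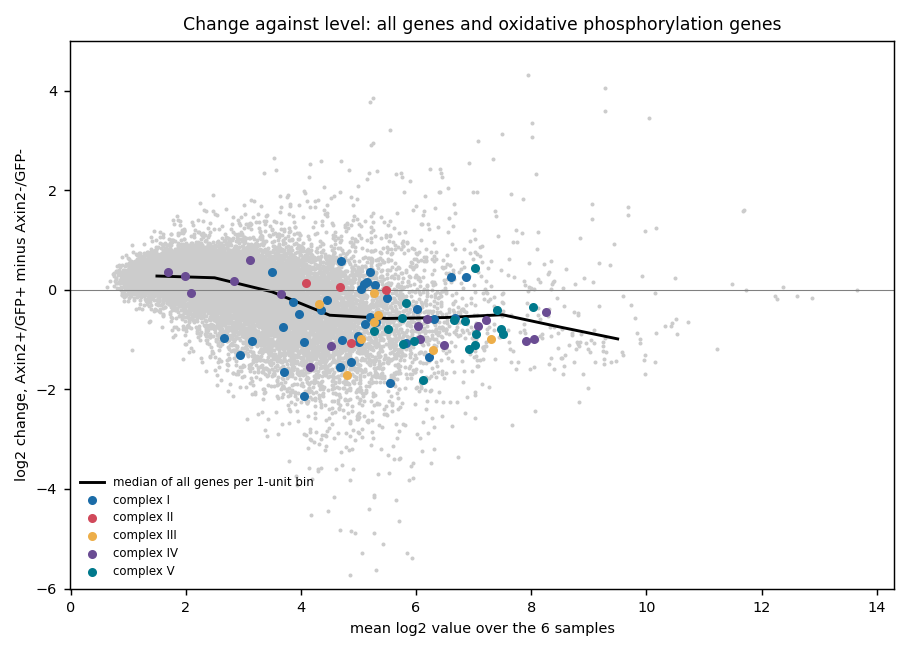
The log2 change, Axin2+/GFP+ minus Axin2-/GFP-, on the vertical axis is drawn over the mean log2 value of the 6 samples on the horizontal axis, with 1 grey point for each of 19938 genes, 1 coloured point for each of 81 oxidative phosphorylation genes and a black line for the median of all genes in bins 1 unit wide. The line is above 0 at low signal and below 0 at high signal, and the coloured points scatter on both sides of it.

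Each complex with more than 4 measured genes had a negative median change. Complex I had 9 of 35 genes lower and a median log2 change of -0.58, complex III 2 of 8 and -0.82, complex IV 5 of 17 and -0.60, and complex V 4 of 17 and -0.80. Complex II stood apart in its values, with 1 of 4 lower and a median of 0.03. All 8 genes of complex III and 16 of 17 of complex V had a negative change, against 26 of 35 in complex I and 13 of 17 in complex IV. The shares lower in complexes I to V were 25.7%, 25%, 25%, 29.4% and 23.5%, none above the 35.5% of genes of like signal. Of those genes 76% had a negative change, and their median log2 change was -0.57. The median level of complex V, 6.85, lay above their range of 4.46 to 6.31. No complex had a gene called higher, and at an unadjusted limma p under 0.05 complexes I, IV and V had 1 higher each. The complex counts moved when single samples were left out. Complex I had 4 lower genes without Axin2-/GFP- replicate 1 and 5 without Axin2+/GFP+ replicate 3. Complex IV had 2 without Axin2-/GFP- replicate 1, 3 without replicate 2 and 2 without replicate 3 of that group. Complex V had 1 without Axin2-/GFP- replicate 1, 2 without Axin2-/GFP- replicate 3 and 8 without Axin2+/GFP+ replicate 3.

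**Figure D2:**
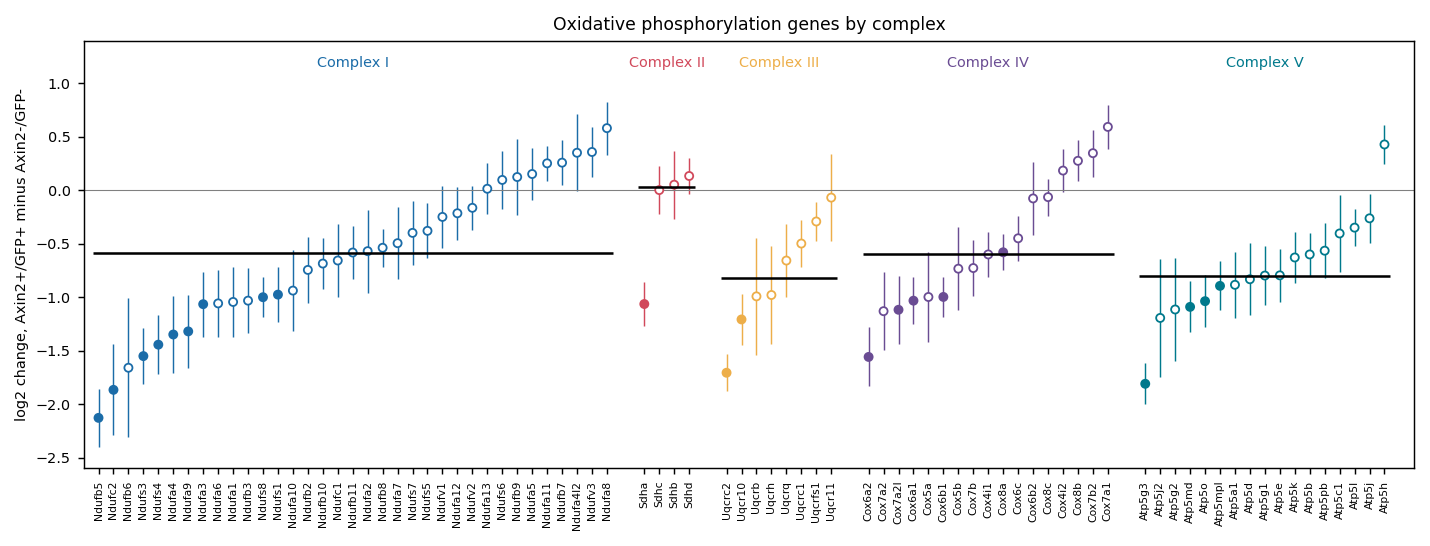
Each point is the log2 change of 1 gene, Axin2+/GFP+ minus Axin2-/GFP-, with its SE from limma as a bar, filled where the adjusted p was under 0.05 and open otherwise, and the black bars are the medians of the complexes. The 21 filled points all lie below 0, and the medians of complexes I, III, IV and V lie between -0.82 and -0.58 while that of complex II is 0.03.

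Replicates of the Axin2+/GFP+ fraction varied more than those of the other fraction. The median SD of a member was 0.43 in Axin2+/GFP+ and 0.21 in Axin2-/GFP-, and the first was the larger in 59 of 81 members (72.8%). Among all genes the medians were 0.26 and 0.19, with 64.5% larger in Axin2+/GFP+, and among genes of like signal they were 0.37 and 0.22, with 72.4%. Ndufb6, a small subunit of the membrane arm of complex I, was the clearest case, with values of 4.73, 1.82 and 2.06 in Axin2+/GFP+ and 4.68, 4.39 and 4.52 in Axin2-/GFP-. Its log2 change of -1.66 (SE 0.65) did not pass (adjusted p = 0.114 in limma), since Axin2+/GFP+ replicate 1 lay above all 3 samples of the other group.

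The promoters of these genes are shown because nuclear respiratory factors are known to act on many of them. A RefSeq table of GRCm38.p6 promoters, spanning 250 bases before to 50 after a start, held 71 promoters of 66 members. The core TGCGCA of the NRF1 motif occurred on either strand in 25.4% of them, against 7.76% of all 32851 promoters. The core CCGGAAG, bound by ETS factors such as GABP, occurred in 23.9% against 8.86%, and AAGATGG, the core of the YY1 motif, in 14.1% against 6.34%. Of the 17 promoters of members called lower, 3 held the NRF1 core, 6 the ETS core and 3 the YY1 core, and of the 54 promoters of the other members 15, 11 and 7 did. For each complex the called gene with the smallest p and an entry with at least 60 bases outside any annotated gene is given below, as the bases (at most 120) just before the start that lie in no RefSeq gene, from 5′ to 3′ on the strand of the gene, with capitals for any of the 3 cores on either strand. They are chr3:32736943-32737056 on the plus strand for Ndufb5, chr13:74350241-74350316 on the minus strand for Sdha, chr11:4704345-4704464 on the minus strand for Uqcr10, chr7:30626115-30626234 on the minus strand for Cox6b1 and chr19:47090648-47090734 on the minus strand for Atp5md.
Ndufb5: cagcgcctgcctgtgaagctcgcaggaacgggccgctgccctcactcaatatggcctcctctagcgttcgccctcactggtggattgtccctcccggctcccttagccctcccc
Sdha: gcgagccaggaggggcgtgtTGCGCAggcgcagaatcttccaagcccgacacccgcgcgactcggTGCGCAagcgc
Uqcr10: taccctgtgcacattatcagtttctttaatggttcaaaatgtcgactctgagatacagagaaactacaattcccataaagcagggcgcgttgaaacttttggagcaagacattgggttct
Cox6b1: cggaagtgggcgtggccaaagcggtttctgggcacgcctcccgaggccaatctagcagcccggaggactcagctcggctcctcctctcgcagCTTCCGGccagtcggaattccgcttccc
Atp5md: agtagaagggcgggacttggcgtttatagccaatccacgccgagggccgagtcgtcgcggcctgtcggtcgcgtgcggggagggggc
The Sdha stretch, which lies between the starts of Sdha and the divergent gene Ccdc127, held 2 NRF1 cores, and the Cox6b1 stretch held 1 ETS core, written on the opposite strand. None of the 3 cores was in the stretches of Ndufb5, Uqcr10 and Atp5md, which says only that these letters are not in those stretches. The full promoter window of Atp5md did hold the ETS core, outside the stretch printed.

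Complex I, the NADH dehydrogenase, gave the lowest value of all members. Ndufb5, an accessory subunit of its membrane arm, measured 3.30, 3.06 and 2.62 in Axin2+/GFP+ and 5.34, 5.42 and 4.60 in Axin2-/GFP-. It was thus lower in every Axin2+/GFP+ sample, by 2.13 ± 0.27 on the log2 scale (SE in limma, adjusted p = 0.00163), or 4.37-fold. Ndufs3, a core subunit of the arm that reaches into the matrix, measured 4.10, 3.76 and 3.83 against 6.03, 5.19 and 5.13, again with no overlap, and its log2 change was -1.55 (SE 0.26, adjusted p = 0.00552). Both genes were lower in each of 16 alternative limma fits, with log2 changes of -2.45 to -1.87 for Ndufb5 and -1.87 to -1.17 for Ndufs3. Ndufs8, a core subunit that holds iron-sulfur clusters, measured 4.14, 3.99 and 4.50 in Axin2+/GFP+ and 5.27, 5.09 and 5.27 in Axin2-/GFP-, and fell by 1.0 on the log2 scale (SE 0.19, adjusted p = 0.0095). Ndufs4, an accessory subunit of the matrix arm whose loss in mice is known to cause encephalopathy, fell by 1.44 (SE 0.27, adjusted p = 0.0097). Ndufs8 and Ndufs4 passed without any 1 sample, but Ndufs8 did not pass after quantile normalization or cyclic loess and Ndufs4 not after quantile normalization.

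A further 5 genes of complex I passed with adjusted p-values from 0.0207 to 0.0464 in limma, and none of these held in every fit that left out a sample. Ndufc2, a subunit of the membrane arm, measured 3.71, 5.69 and 4.45 in Axin2+/GFP+ and 6.60, 6.27 and 6.58 in Axin2-/GFP-, a log2 change of -1.87. Ndufa9, which lies near the ubiquinone site, had a log2 change of -1.32, Ndufa4 of -1.35, the core iron-sulfur subunit Ndufs1 of -0.98 and the accessory subunit Ndufa3 of -1.07. Ndufc2 did not pass without Axin2+/GFP+ replicate 3 or without any 1 of the Axin2-/GFP- samples, and its highest adjusted p over all alternative limma fits was 0.0759. Ndufa9 did not pass without Axin2+/GFP+ replicate 2 or 3 or without Axin2-/GFP- replicate 1 or 2 (highest adjusted p with a sample left out 0.11). Ndufs1 passed in 1 of the 6 fits with a sample left out, that without Axin2-/GFP- replicate 3, and Ndufa4 and Ndufa3 passed only without Axin2+/GFP+ replicate 1, with highest adjusted p-values in these 6 fits of 0.126 for Ndufs1, 0.108 for Ndufa4 and 0.145 for Ndufa3. Ndufa9 and Ndufs1 were still lower with quantile normalization and with cyclic loess. Ndufs1 was dim, however, with a mean log2 value of 2.66. That is under the 95th percentile of the receptor genes, 2.83, so a filter at that level removed it.

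The remaining 26 genes of complex I did not pass, and they included other subunits of the same modules. The flavin-bearing NADH site is formed by Ndufv1, whose log2 change was -0.25 with a 95% interval of -0.90 to 0.41, and its partner Ndufv2 had -0.16 (-0.63 to 0.31). Ndufs7, the core subunit with the last iron-sulfur cluster before ubiquinone, had -0.40 (-1.07 to 0.28). Ndufa13, also known as Grim19, had 0.01 (-0.52 to 0.55). The highest value in the complex was that of Ndufa8, an accessory subunit of the intermembrane face, which measured 5.51, 4.69 and 4.75 in Axin2+/GFP+ and 4.50, 4.51 and 4.19 in Axin2-/GFP-. Its samples did not overlap, yet its log2 change of 0.58 (SE 0.25) did not pass (adjusted p = 0.137 in limma). Ndufa8 and Ndufa11 were called higher both with quantile normalization and with cyclic loess, and Ndufb7 with cyclic loess only. Ndufa4l2, a relative of Ndufa4 known to be induced by low oxygen, had 0.35 (-0.47 to 1.17), and its value became -0.069 without Axin2+/GFP+ replicate 1.

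Complex II, succinate dehydrogenase, is also an enzyme of the citric acid cycle, and its 4 subunits did not move alike. Sdha, the flavoprotein that oxidizes succinate, measured 3.97, 4.41 and 4.65 in Axin2+/GFP+ and 5.49, 5.35 and 5.38 in Axin2-/GFP-. All Axin2+/GFP+ values lay below the others, and Sdha fell by 1.06 on the log2 scale (SE 0.21, adjusted p = 0.0108 in limma). Sdhb, the iron-sulfur subunit, measured 5.45, 4.21 and 4.45 against 4.81, 4.82 and 4.31, a log2 change of 0.05 with a 95% interval of -0.67 to 0.78. The membrane anchors Sdhc and Sdhd had log2 changes of 0.00 (-0.51 to 0.51) and 0.13 (-0.24 to 0.51). In these 3 genes the groups overlapped, and the intervals leave room for changes of up to 0.78 in size. These intervals do not reach the log2 change of Sdha, but the difference between genes was not tested. Sdha passed in all 6 fits that left out a sample but not after quantile normalization (-0.63) or cyclic loess (-0.66), and the sign of Sdhb turned without Axin2+/GFP+ replicate 1 (-0.32) and without Axin2-/GFP- replicate 3 (-0.11).

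Complex III, the cytochrome bc complex, held one of the most clearly separated genes. Uqcrc2, a core protein of the matrix side, measured 4.08, 3.95 and 3.78 in Axin2+/GFP+ and 5.83, 5.54 and 5.57 in Axin2-/GFP-, so the fractions lay far apart beside an SD of 0.15 in each. Its log2 change was -1.71 (SE 0.17, adjusted p = 0.000654 in limma), a 3.26-fold lower value, and it was called in all 16 alternative limma fits and by the methods' t-test after Benjamini-Hochberg adjustment. Uqcr10, a small accessory subunit, measured 5.31, 5.84 and 5.90 against 6.79, 6.63 and 7.25. It too had no overlap, with a log2 change of -1.21 (SE 0.24, adjusted p = 0.0111 in limma), and it did not pass after quantile normalization or cyclic loess. Uqcrc1, the partner of Uqcrc2 in the core, also had no overlap but a log2 change of only -0.50 (SE 0.22, adjusted p = 0.153 in limma). Uqcrfs1, the Rieske iron-sulfur protein that passes electrons on within the complex, had -0.29 with a 95% interval of -0.70 to 0.12. Uqcr11 had the value nearest to 0, -0.07 (-0.99 to 0.85), and its sign turned after quantile normalization (0.37), after cyclic loess (0.38) and without Axin2+/GFP+ replicate 3 (0.45) or Axin2-/GFP- replicate 1 (0.022).

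Complex V, the ATP synthase, had 4 genes lower. Atp5g3 encodes one of 3 precursors of the c subunit, the protein of the rotating ring. It measured 5.06, 5.55 and 5.05 in Axin2+/GFP+ and 6.93, 7.05 and 7.11 in Axin2-/GFP-, a fall of 1.81 on the log2 scale (SE 0.19, adjusted p = 0.000746 in limma) or 3.51-fold. Its call held in all 16 alternative limma fits and in the methods' t-test after Benjamini-Hochberg adjustment. Atp5g1 and Atp5g2 encode the same mature c subunit with other import sequences, and their log2 changes were -0.80 (SE 0.28, adjusted p = 0.0834 in limma) and -1.11 (0.48, 0.143). In Atp5g2 the Axin2+/GFP+ samples spread widely, at 6.09, 7.79 and 5.54 against 7.63, 7.54 and 7.60, and replicate 2 of that group was the highest of all 6 samples.

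The other lower genes of complex V were 2 small membrane proteins and a subunit of the stalk. Atp5md, which encodes the small protein also called DAPIT, fell by 1.09 (SE 0.24, adjusted p = 0.0172 in limma), from 6.63, 6.27 and 6.04 in Axin2-/GFP- to 4.83, 5.30 and 5.53. Atp5o encodes the subunit that joins the catalytic head to the stalk, and it measured 5.88, 4.99 and 5.46 against 6.61, 6.24 and 6.59, a log2 change of -1.04 (0.25, 0.0242). Atp5mpl, another small protein of the membrane part, had a log2 change of -0.89 (0.23, 0.0327). None of these 3 passed after quantile normalization or cyclic loess. The calls rested on single samples as well: Atp5md did not pass without Axin2-/GFP- replicate 1 or 2, Atp5o not without Axin2+/GFP+ replicate 2 or Axin2-/GFP- replicate 1 or 3, and Atp5mpl passed only without Axin2+/GFP+ replicate 3, with highest adjusted p-values over the alternative limma fits of 0.142, 0.244 and 0.569.

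The catalytic head of the ATP synthase is built of Atp5a1 and Atp5b, and neither passed. Atp5a1 had a log2 change of -0.88 with a 95% interval of -1.58 to -0.19 (adjusted p = 0.0834 in limma) and Atp5b of -0.60 (-1.06 to -0.14, adjusted p = 0.0776). In both the fractions did not overlap. Atp5h, a subunit of the peripheral stalk, was the single gene of the complex with a positive value, and it measured 7.37, 7.10 and 7.26 in Axin2+/GFP+ and 7.02, 6.65 and 6.78 in Axin2-/GFP-. Its log2 change of 0.43 (SE 0.18) did not pass (adjusted p = 0.13 in limma), although it was called higher after quantile normalization (0.85) and cyclic loess (1.06).

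**Figure D3:**
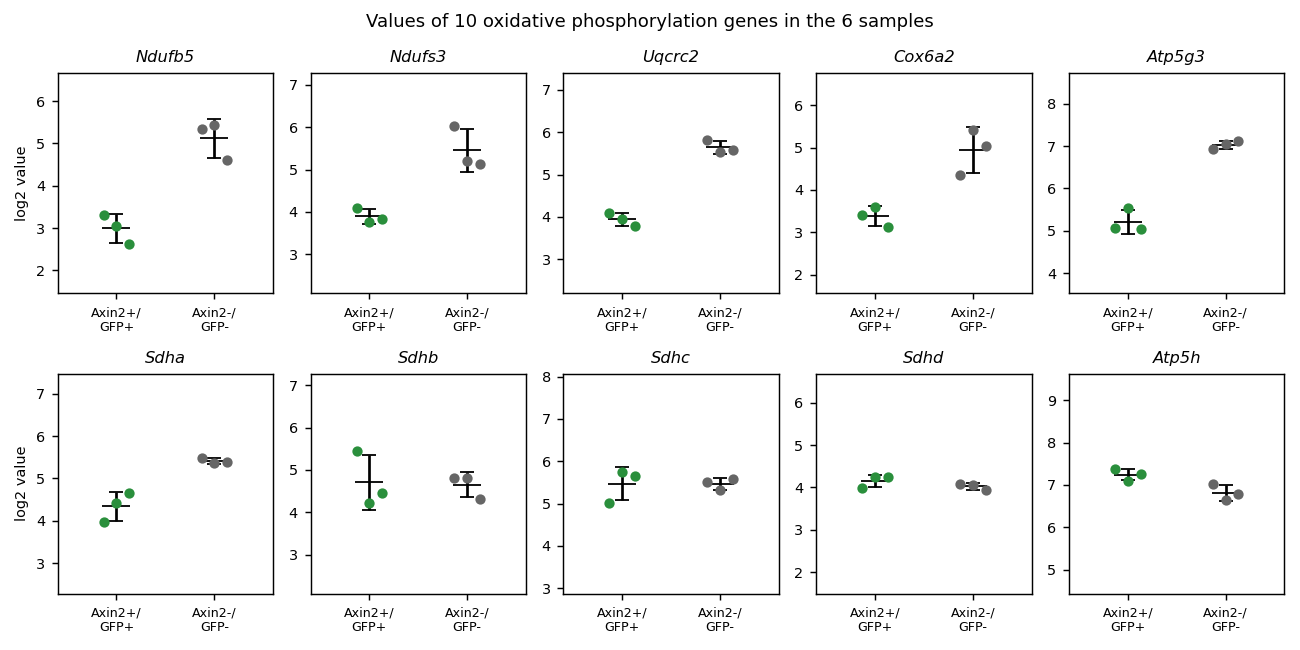
Log2 values of 10 genes in the 3 Axin2+/GFP+ samples (green) and the 3 Axin2-/GFP- samples (grey), with bars for the mean and SD of each group and axes of equal length that do not start at 0. The 5 genes of the upper row and Sdha do not overlap between the groups, Sdhb, Sdhc and Sdhd do, and Atp5h lies higher in Axin2+/GFP+.

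Complex IV, cytochrome c oxidase, is the complex whose subunits come in tissue isoforms, and 5 of its 17 genes were lower. Cox6a2, the form of subunit VIa best known from heart and skeletal muscle, measured 3.42, 3.59 and 3.12 in Axin2+/GFP+ and 4.36, 5.42 and 5.03 in Axin2-/GFP-. It fell by 1.56 on the log2 scale (SE 0.28, adjusted p = 0.00728 in limma) and was lower in all 16 alternative limma fits, at -1.88 to -1.27. Its general counterpart Cox6a1 was lower too, at 7.11, 7.38 and 7.67 against 8.46, 8.11 and 8.68, a log2 change of -1.03 (SE 0.22, adjusted p = 0.0156). Thus both forms of this subunit were lower, although Cox6a1 did not pass without Axin2-/GFP- replicate 1 or 3, nor after quantile normalization or cyclic loess. Its highest adjusted p was 0.0648 with a sample left out and 0.333 over all alternative limma fits. None of 16 skeletal muscle markers passed in either direction (2 were higher and 0 lower at an unadjusted limma p under 0.05, and 1 was higher with quantile normalization and with cyclic loess), and their mean level was 2.67 to 2.98 in Axin2+/GFP+ and 2.54 to 2.62 in Axin2-/GFP-. At the unadjusted threshold 16.3% of all genes were higher and 17.6% lower.

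The other muscle forms of cytochrome c oxidase had values on the opposite side of 0. Cox7a1 measured 3.58, 3.15 and 3.49 in Axin2+/GFP+ and 2.67, 3.13 and 2.64 in Axin2-/GFP-. Without overlap, its log2 change was 0.59 (SE 0.21) and did not pass (adjusted p = 0.0834 in limma). Its general counterpart Cox7a2 measured 3.66, 3.32 and 4.91 against 5.09, 5.11 and 5.08, with a log2 change of -1.13 (SE 0.36, adjusted p = 0.0663). Cox8b, the muscle form of subunit VIII, had 0.28 with a 95% interval of -0.16 to 0.71, whereas the general form Cox8a was lower by call, at 5.79, 5.87 and 6.02 against 6.57, 6.33 and 6.51. The log2 change of Cox8a, -0.58 (SE 0.17, adjusted p = 0.0477), was the smallest among the 21 called members, it did not pass in any of the 6 fits that left out a sample, and it was called in 4 of 16 alternative limma fits. Cox8b was dim, with a mean log2 value of 1.99, under the 2.83 of the receptor genes' 95th percentile, and Cox7a1 had 3.11. The receptor genes, with a median level of 1.64, had a median log2 change of 0.30. With the arrays centred on them Cox8b had -0.043. Whether the forms of a subunit differed from each other in their change was not tested, nor was the part of signal level in it.

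Isoforms tied to other tissues did not pass. Cox4i2, known from lung and from cells at low oxygen, had a log2 change of 0.19 (95% interval -0.26 to 0.63) and the general Cox4i1 -0.60 (-1.08 to -0.12, adjusted p = 0.0853 in limma). Forms known from testis had log2 changes of -0.08 for Cox6b2, 0.35 for Cox7b2 and -0.06 for Cox8c, with 95% intervals of -0.85 to 0.70, -0.15 to 0.85 and -0.46 to 0.33. Cox7b2 and Cox8c were dim as well, with mean log2 values of 1.69 and 2.09. The general counterparts of Cox6b2 and Cox7b2, Cox6b1 and Cox7b, were lower in every Axin2+/GFP+ sample than in any sample of the other group. Cox6b1 measured 7.48, 7.38 and 7.81 against 8.39, 8.57 and 8.70 and fell by 1.0 (SE 0.19, adjusted p = 0.00923 in limma), a call lost after quantile normalization and cyclic loess, while Cox7b had -0.73 (SE 0.27, adjusted p = 0.0951). Cox7a2l, which helps join complexes III and IV into supercomplexes, had a log2 change of -1.12 (SE 0.32, adjusted p = 0.0463), with values of 5.26, 6.66 and 5.85 against 6.99, 7.18 and 6.95, and passed in 1 of 6 fits with a sample left out, that without Axin2+/GFP+ replicate 2. Over all 19 isoform genes of complexes I, IV and V that were listed, 7 were lower and 0 higher, with a median log2 change of -0.73, and 2 were lower after quantile normalization or cyclic loess. The share lower was 36.8%, beside 11.4% of all genes, but it was near the 35.5% of genes of like signal. The levels of these isoforms spread more widely than the range of those genes, 4.46 to 6.31, with quartiles of 3.31 and 6.35. The count was 3, 4 and 3 without Axin2-/GFP- replicate 1, 2 and 3.

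**Figure D4:**
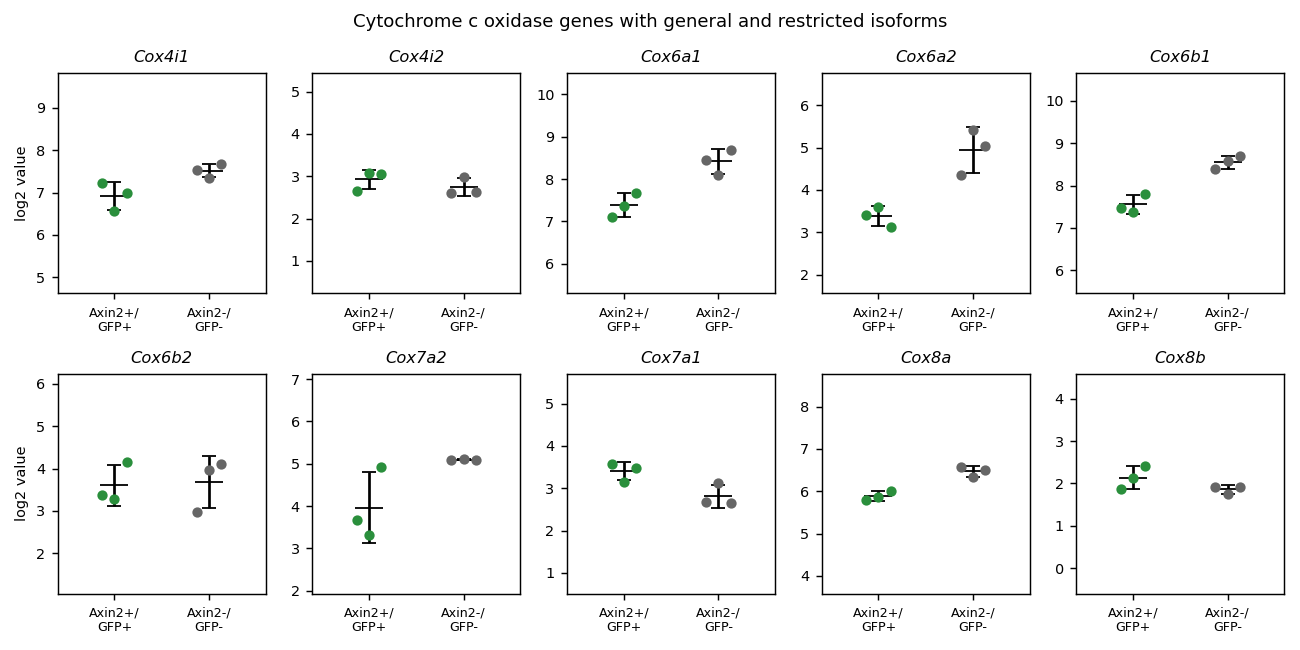
Log2 values of 5 pairs of cytochrome c oxidase isoforms in the 3 Axin2+/GFP+ samples (green) and the 3 Axin2-/GFP- samples (grey), with bars for the mean and SD and axes of equal length that do not start at 0. Cox6a1, Cox6a2, Cox6b1 and Cox8a lie lower in Axin2+/GFP+ without overlap, and Cox4i2, Cox6b2 and Cox8b overlap.

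The number of called members depended on how the arrays were put on one scale. As deposited 21 members were lower and 0 higher. Quantile normalization gave 7 and 3, cyclic loess 8 and 4, and centring on the receptor genes 43 and 0. Under quantile normalization 6.35% of all genes and 15.6% of genes of like signal were lower, and 3.85% and 10.3% were higher. Under cyclic loess these shares were 7.36% and 17.3% lower, and 3.94% and 10.8% higher. With the arrays centred on the receptor genes 20% of all genes and 53.5% of genes of like signal were lower. The median member stayed below 0 throughout, at -0.78 with median centring, -0.22 with quantile normalization, -0.19 with cyclic loess and -0.98 with receptor centring, beside -0.69, -0.12, -0.13 and -0.89 for genes of like signal. The complex II median log2 change, 0.03 as deposited, was 0.45 and 0.42 with quantile normalization and cyclic loess and turned negative with median centring (-0.092), with receptor centring (-0.29) and without Axin2+/GFP+ replicate 1 (-0.051) or 2 (-0.019) or Axin2-/GFP- replicate 3 (-0.026). The genes called lower as deposited, with quantile normalization, with cyclic loess and without any 1 sample numbered 5: Ndufb5, Ndufs3, Uqcrc2, Cox6a2 and Atp5g3, from complexes I, III, IV and V. The share of all genes, or of genes of like signal, that met these conditions together was not counted. The 5 therefore cannot be read as more than genes in general would give.

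**Figure D5:**
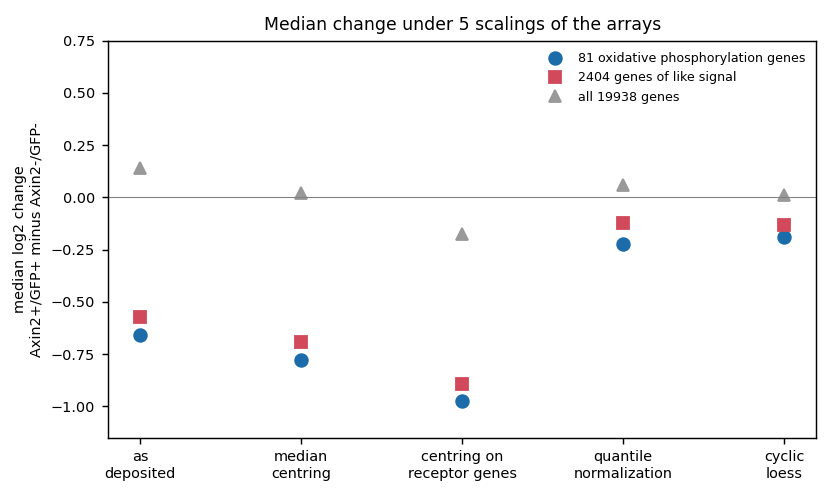
Median log2 change, Axin2+/GFP+ minus Axin2-/GFP-, under 5 scalings of the arrays, for the 81 oxidative phosphorylation genes (circles), the 2404 genes of like signal (squares) and all 19938 genes (triangles). The circles lie below 0 and a little below the squares in each scaling.

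Genes that build or serve the complexes were read from lists beside the members. Of 42 assembly factors measured, 5 were lower and 0 higher, with a median log2 change of -0.24. After quantile normalization 4 were lower, and after cyclic loess 5, though not all the same genes. The share lower, 11.9%, was near the 11.4% of all genes, and the count was 3 without Axin2-/GFP- replicate 1. Sdhaf2, which attaches the flavin to Sdha, measured 3.42, 3.37 and 2.36 in Axin2+/GFP+ and 4.62, 5.44 and 5.17 in Axin2-/GFP-, and fell by 2.03 (SE 0.32, adjusted p = 0.00452 in limma). Sdhaf1, which serves the iron-sulfur subunit of complex II, fell by 1.45 (0.28, 0.0114). These 2 genes and Sdha were thus called lower, whereas Sdhb, Sdhc and Sdhd did not pass. The listed complex II factors Sdhaf3 and Sdhaf4 were not among the genes called. For complex IV, Surf1 fell by 0.99 (0.17, 0.00697), Lrpprc, which stabilizes mitochondrial messenger RNA, by 1.10 (0.20, 0.00729) and the copper carrier Cox17 by 1.11 (0.32, 0.0458). Sdhaf1 did not pass without Axin2-/GFP- replicate 1 (adjusted p = 0.0502), Cox17 passed only without Axin2+/GFP+ replicate 1, with adjusted p-values up to 0.145 otherwise, and the other 3 passed without any 1 sample. Cox17 was also not called after quantile normalization or cyclic loess.

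Of 11 other electron transport genes, 2 were lower and 1 higher. The share lower was 18.2%, beside 11.4% of all genes, and 4.64% of all genes were higher. Both quantile normalization and cyclic loess gave 1 lower and 0 higher. Ndufab1, the mitochondrial acyl carrier protein that is also bound in complex I, fell by 1.09 (SE 0.17, adjusted p = 0.00439 in limma), from 5.31, 5.03 and 5.21 to 4.25, 3.95 and 4.07. Etfa, which feeds electrons from fatty acid oxidation, fell by 0.86 (0.24, 0.041), and Cyct, the testis form of cytochrome c, rose by 0.68 (0.19, 0.0412) in the range of dim signal. Ndufab1 passed without any 1 sample, Etfa only without Axin2+/GFP+ replicate 2 and Cyct in none of the 6 such fits, with adjusted p-values up to 0.117 and 0.139. Cycs, the general cytochrome c, had -0.53 and did not pass. The 13 subunits encoded in mitochondrial DNA were not analysed here, since no feature with 1 symbol carried them.

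The regulators of these genes were also measured. Of 21 genes for mitochondrial DNA maintenance, transcription and biogenesis, 6 were lower and 0 higher, and the median log2 change was -0.25. After quantile normalization 4 were lower, and after cyclic loess 5, though not all the same genes. The share lower was 28.6%, beside 11.4% of all genes, and the count was 2 and 3 without Axin2-/GFP- replicate 2 and 3. Nrf1, whose motif core stands in the Sdha stretch, measured 2.52, 2.81 and 3.13 in Axin2+/GFP+ and 3.57, 4.40 and 4.42 in Axin2-/GFP-, and fell by 1.31 (SE 0.27, adjusted p = 0.014 in limma). Gabpb1, which encodes a partner of the ETS factor in GABP, fell by 1.55 (0.20, 0.00178), whereas Gabpa, the ETS factor itself, had -0.31 and did not pass. Pprc1, a coactivator of the PGC family, fell by 1.25 (0.19, 0.00345), and its relatives Ppargc1a and Ppargc1b had -0.25 and -0.18 and did not pass. Tfam, which packages and transcribes mitochondrial DNA, fell by 1.22 (0.31, 0.0328) from 3.04, 2.74 and 3.41 to 2.39, 1.95 and 1.17. Yy1 had -0.23 and did not pass. Gabpb1 and Pprc1 passed without any 1 sample, Nrf1 not without Axin2-/GFP- replicate 2 or 3 (highest adjusted p 0.0587), and Tfam only without Axin2+/GFP+ replicate 1 (highest 0.113). The other 2 called, Gabpb2 and Ssbp1, did not pass after quantile normalization or cyclic loess, and Gabpb2 was also lost without Axin2-/GFP- replicate 2 (adjusted p = 0.0688) and Ssbp1 in every fit with a sample left out but that without Axin2+/GFP+ replicate 3 (highest 0.139).

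The lists of the citric acid cycle and of glycolysis had median changes of opposite sign, though that of glycolysis came near 0 under one scaling. Of 17 enzymes of the citric acid cycle and pyruvate entry measured, 6 were lower and 0 higher, with a median log2 change of -0.57, and after cyclic loess 2 were lower and 1 higher. The share lower, 35.3%, stood beside 11.4% of all genes and 35.5% of genes of like signal, whose median was also -0.57. That range of signal, 4.46 to 6.31, was set by the oxidative phosphorylation genes and not by this list. These enzymes had a median level of 4.40, with quartiles of 3.59 and 5.40, so the 2 sets are not matched in signal. The count was 2 without Axin2-/GFP- replicate 1 or 2 and 3 without Axin2-/GFP- replicate 3 or Axin2+/GFP+ replicate 2. Dld, the lipoamide dehydrogenase shared by several complexes, fell by 1.28 (SE 0.19, adjusted p = 0.00325 in limma) and Idh3b, a subunit of the NAD-dependent isocitrate dehydrogenase, by 1.35 (0.20, 0.00334). Of 20 glycolysis and transport genes 2 were lower and 6 higher, beside 4.64% of all genes higher, with a median of 0.38, and both quantile normalization and cyclic loess gave 1 lower and 8 higher. Their median was 0.56 and 0.54 under these scalings. Receptor centring gave 3 lower and 5 higher with a median of 0.057, and without Axin2+/GFP+ replicate 3 the median was 0.18. Hk1, the hexokinase that docks on mitochondria, measured 5.47, 5.52 and 5.55 in Axin2+/GFP+ and 7.20, 6.88 and 6.75 in Axin2-/GFP- and fell by 1.43 (0.18, 0.00151). Hk2, the inducible hexokinase, measured 3.78, 4.40 and 3.95 against 2.67, 2.64 and 2.68 and rose by 1.39 (0.20, 0.00286). Hk1 and Hk2 thus changed in opposite directions. Also higher were Hk3, Slc2a3, Aldoa, Pkm and Slc16a3, with log2 changes of 1.18, 1.25, 1.02, 1.08 and 0.63, and the lactate transporter Slc16a1 was lower, with -1.23. Dld, Idh3b, Hk1, Hk2, Hk3, Slc2a3, Aldoa and Pkm passed without any 1 sample, whereas Slc16a3 and Slc16a1 passed only without Axin2+/GFP+ replicate 2, with adjusted p-values up to 0.118 and 0.133 otherwise. Whether the lists differed from each other was not tested, and the B lineage and neutrophil markers above moved with the same contrast.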

How the data were processed

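RNA of 3 Axin2+/GFP+ and 3 Axin2-/GFP- samples was measured on Affymetrix whole-transcript arrays. The authors deposited log2 expression values per feature, made with RMA in R 3.2.1 according to the submitters' processing notes. For the probe set level and the annotation release nothing is given in the sources used here, and the log2 scale was taken from the range of the values. Of 35557 features, 21789 carried 1 symbol, 1621 carried several and were left out of gene tests, and the brightest feature of a gene was used. All 81 members matched a RefSeq table by gene ID, and 0 names changed.

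Groups came from the sample labels. The test was limma 3.58.1 under R 4.3.3 (lmFit, eBayes, Benjamini-Hochberg over 19938 genes, threshold 0.05), after the script was tested on simulated data. The p-values rest on the spread between these 6 samples, whose number limits the precision, and with 3 against 3 samples an exact permutation test cannot go below p = 0.1. Genes of like signal are those inside the members' quartiles of mean value. The members, lists and tests were chosen with earlier results of these data known. The named genes are the 3 members of each complex with the smallest p, the 1 furthest on the other side of the complex median, all listed isoforms, up to 2 genes of each other list, and Axin2. Other genes named, among them the remaining called members, were chosen after their values were seen.

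The alternatives were a variance trend, the methods' t-test, array weights, a replicate block, 4 other scalings, a filter on features under a log2 value of 2.83 (the 95th percentile of 1194 receptor genes, passed by 77 members), other feature rules and leaving out each sample. The unadjusted limma threshold was added after seeing the data. Fits without 1 sample took the spread from those remaining. Of the other lists fixed, erythroid markers had 2 of 8 lower and 1 higher, macrophage and monocyte markers 2 of 11 lower and 1 higher, brown adipocyte markers 1 of 8 lower and 0 higher, and pericyte and smooth muscle markers 0 of 12 in either direction by limma (1 lower and 2 higher at an unadjusted p under 0.05). Of all genes 11.4% were called lower and 4.64% higher, and 17.6% and 16.3% passed at the unadjusted limma threshold. With so few genes in a list, these counts were not read as results.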

Additional observations from a re-analysis of the deposited data

How the results depend on the processing

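The 21 members called lower became 2 with the methods' t-test after Benjamini-Hochberg adjustment, 7 after quantile normalization, 8 after cyclic loess, 43 after centring on receptor genes and 41 at an unadjusted limma p under 0.05, and ranged from 10 to 21 when 1 sample was left out. The members called higher, 0 as reported, became 3 with the methods' t-test unadjusted, 3 after quantile normalization, 4 after cyclic loess and 3 at an unadjusted limma p. The methods' t-test unadjusted called 14.8% of all genes and 5.91% of genes of like signal higher, and 13.8% and 39.9% lower. In the same order (t-test adjusted, quantile, cyclic loess, receptor centring, limma unadjusted), complex I went from 9 lower to 0, 4, 5, 17 and 18, complex IV from 5 to 0, 1, 1, 9 and 9 and complex V from 4 to 1, 1, 1, 12 and 11. Complex II went from 1 to 0, 0 and 0 and complex III from 2 to 1, 1, 1 and 4 under the first of these. Complex IV had 3 with a variance trend, and complex V had 7 with the methods' t-test unadjusted. With 1 sample left out complex I ranged from 4 to 10, complex IV from 2 to 5 and complex V from 1 to 8. The cause was not tested, but receptor centring shifts every gene by one amount for each array.

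After quantile normalization, cyclic loess and receptor centring, the median log2 change of all members was -0.22, -0.19 and -0.98, that of complex I -0.20, -0.20 and -0.90, of complex II 0.45, 0.42 and -0.29, of complex IV -0.27, -0.10 and -0.92 and of complex V -0.33, -0.24 and -1.12. For complex III it was -0.37 and -0.27 under the first 2. Of the 81 members, 64 had a negative change as deposited, 54 after quantile normalization, 51 after cyclic loess and 75 after receptor centring. The sign turns given next cover only the single genes followed, and other members, such as Sdhc, changed sign too. Signs turned for Cox4i1 under cyclic loess (0.038), for Cox4i2 (-0.13), Cox8b (-0.043) and Sdhd (-0.18) under receptor centring, for Cox6b2 under quantile normalization (0.10) and cyclic loess (0.064), for Uqcr11 under quantile normalization (0.37) and cyclic loess (0.38), and for Sdhb with array weights (-0.020), median centring (-0.067) and receptor centring (-0.27). With 1 sample left out the range crossed 0 for Cox6b2 (-0.43 to 0.13), Sdhb (-0.32 to 0.30), Uqcr11 (-0.41 to 0.45), Cox8c (-0.14 to 0.031) and Ndufa4l2 (-0.069 to 0.68), and none of the genes whose sign turned was called as reported.

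The replicate numbers are shared by the groups in the labels, but the correlations of same-numbered samples' deviations were 0.03, 0.01 and 0.05, under the 0.1 set for a pairing, and 5 of 6 samples correlated best with their own number. With the replicate block 25 members were lower and 0 higher, with 12 in complex I, 1 in complex II, 2 in complex III, 4 in complex IV and 6 in complex V. In that fit 11% of all genes and 35.1% of genes of like signal were lower, and 3.22% and 3.95% were higher. For the single genes followed, 978 values under an alternative kept their direction and side of the threshold, 88 no longer passed, 45 newly passed and 21 changed sign.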

Other observations

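A few oxidative phosphorylation features carry several gene symbols and stood outside the members, so they are given as values with no test. The 3 features shared by Cox7c and Gm12338 had log2 changes of -1.17, -1.21 and -1.20. The 2 features shared by Ndufb4 and Ndufb4b had -0.09 and -0.07, and the feature shared by Ndufs5 and Ndufs5-ps had -0.01. Cox7c is a small subunit of complex IV and Ndufb4 an accessory subunit of complex I, and their signal cannot be split from that of the copies.

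Members with more than 1 feature numbered 16, and in all 16 the features of a gene had changes of one sign. The size could differ between features, as in Cox6c, a small subunit of complex IV, at -0.45 and -1.39 and in Atp5g1 at -0.80 and -1.45. Atp5md had log2 changes from -1.70 to -1.09 over 3 features, and Atp5h had 0.43 to 0.70 over 3.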
